A study of Oryctolagus cuniculus with 15 samples.

Results

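Expression in keratocytes embedded at low density within a fibrillar collagen matrix (3DF_50) was compared with that in keratocytes plated on top of a matrix of the same collagen (2DF). The members of the comparison are 6 of the 15 RNA-seq libraries of the series, 3 per condition, taken by their condition labels alone, and all genes were included. Both conditions used first-passage corneal keratocytes from New Zealand white rabbits, which carried no transgene or other genetic change, cultured for 6 days in serum-free medium with ascorbic acid and without added growth factors. In 3DF_50, 50000 cells per matrix were mixed into neutralized bovine type I collagen before it polymerized; in 2DF, the same volume of collagen polymerized first and the cells were then plated on its surface at a similar number per dish. Both conditions were lifted from the dish and digested briefly with collagenase and hyaluronidase before lysis. The cells are a primary culture and not a stroma, each library pooled several matrices, and the age and sex of the rabbits were not given in the sources used here. The other fibrillar condition of the series, 3DF, held 100000 cells per matrix, and its values are given beside some results.

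Keratocytes are the resident cells of the corneal stroma. They make and maintain a matrix of thin collagen fibrils, of types I and V for the most part, whose diameter and spacing are held by small leucine-rich proteoglycans such as lumican, keratocan and decorin. Procollagen chains are hydroxylated and folded in the endoplasmic reticulum, trimmed outside the cell by procollagen proteinases and then crosslinked by lysyl oxidases. Cells that spread on a stiff surface are known to assemble focal adhesions and stress fibers. With them the transcriptional co-activator YAP binds TEAD factors at target genes such as those for CTGF and CYR61. Cells surrounded by a compliant matrix extend thin dendritic processes. This contrast is general background and does not describe the comparison made here, in which both conditions used the same collagen. For its embedded condition with more cells, the paper describes matrix stiffness as matched to that of cells on top. It also reports somewhat thinner, more branched extensions in both of these than on a collagen coating. The part of stiffness in the results was not tested.

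The 2DF libraries held 16167154 to 17674886 counted reads and the 3DF_50 libraries 14626982 to 16472547, and the replicates were separate experiments. The 10 genes with the most counts took 17.1 to 21.8% of the counts in 2DF and 12.6 to 13.8% in 3DF_50. In a principal component analysis of log2(FPKM + 1), 56.1% of the variance lay on the first component, which separated the conditions, with scores of -29.0 to -15.8 for 2DF and 19.9 to 23.6 for 3DF_50. FPKM is the number of fragments per kilobase of gene model, scaled to the number of mapped fragments. The keratocyte markers summed to 23047 to 27410.5 FPKM in 2DF and 20168 to 23655 in 3DF_50, whereas the 22 epithelial markers found in the table summed to 4.18 to 17.8 and 2.79 to 17.2, and the 13 immune markers to 10.3 to 14.6 and 4.5 to 6.33. No epithelial marker passed the test, although the epithelial sum varied within each condition and 3 were lower DEGs when replicate 3 of 3DF_50 was left out. The corneal endothelial markers summed to 573 to 689.6 FPKM in 2DF and 269 to 303 in 3DF_50. Most of that difference lay in COL8A2, a collagen whose levels are given below. Of 8 tested, 2 were lower DEGs (25.0%, against 3.01% of all genes), TMEM178A (19.2, 20.5 and 21 against 3.25, 3.7 and 3.7) and COL8A2. The ion transporter SLC4A11 stood at 0.723, 0.824 and 0.65 and 1.28, 0.566 and 0.493. The part of endothelial cells in the results was not tested. Of vascular endothelial markers 1 was lower and 1 higher of 5 tested, of nerve and Schwann cell markers 1 and 1 of 8. Over all genes 3.01% were lower DEGs and 1.44% higher. With library size only the vascular endothelial counts were 0 lower and 1 higher, and the nerve and Schwann cell counts 0 and 3. Of the 13 immune markers, 9 did not pass the filter on low counts. Of the 4 tested, 1 was a lower DEG (25.0%, against 3.01% of all genes) and 0 were higher. It was LAPTM5 (6.32-fold lower in 3DF_50, adjusted p = 0.00174 by edgeR's quasi-likelihood test). The pan-leukocyte gene PTPRC was listed at 0 in 5 of the 6 libraries. In bulk RNA, fewer cells of a type and less RNA per cell cannot be told apart.

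Of 13201 genes tested, 587 (4.45%) were differentially expressed (DEGs), meaning that the log2 fold change was 1 or more in size and the adjusted p no more than 0.05 by edgeR's quasi-likelihood test, adjusted by Benjamini-Hochberg over all genes tested; every adjusted p below comes from this test unless another is named. Expression was lower in 3DF_50 for 397 genes (3.01%) and higher for 190 (1.44%). Without the limit on fold change, 1764 genes (13.4%) passed, 1133 lower (8.58%) and 631 higher (4.78%). The FPKM ranges of the conditions did not overlap for 584 of the 587 DEGs, against 30.9% of all genes tested. The excess of lower genes depended on scaling. With library size only in place of TMM factors, edgeR's correction for libraries of unlike composition, the median over all genes of the log2 fold change moved from 0.021 to 0.246 and the split became 287 lower and 394 higher, and with the 10 largest genes left out of the library size it was 326 lower and 276 higher. With all 15 libraries in 1 fit and the prefix of the library names as a block, 236 DEGs were called, 191 lower and 45 higher. Only replicate 1 of 2DF and replicate 2 of 3DF_50 share a prefix (E5) in their library names. The other 2DF libraries each have a prefix that no other library of the series has. With that block the difference between 3DF_50 and 2DF thus rests on the E5 pair alone, here and below. In that pair alone, 586 of the 587 DEGs differed in the same direction. The fit includes both libraries, and the FPKM ranges of 584 DEGs do not overlap. That agreement was thus largely fixed by how the DEGs were chosen and is not a separate test. The median log2 difference in the pair was -1.05 for the lower and 1.27 for the higher DEGs. The medians in the fit were -1.54 and 1.58, on another measure. The pair differences used library size only, without TMM factors, and added 1 to the scaled counts, so the sizes are not compared. Among the lower DEGs, replicate 3 of 2DF held the highest 2DF level for 258 of 397 genes and replicate 1 the lowest for 250.

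**Figure D1:**
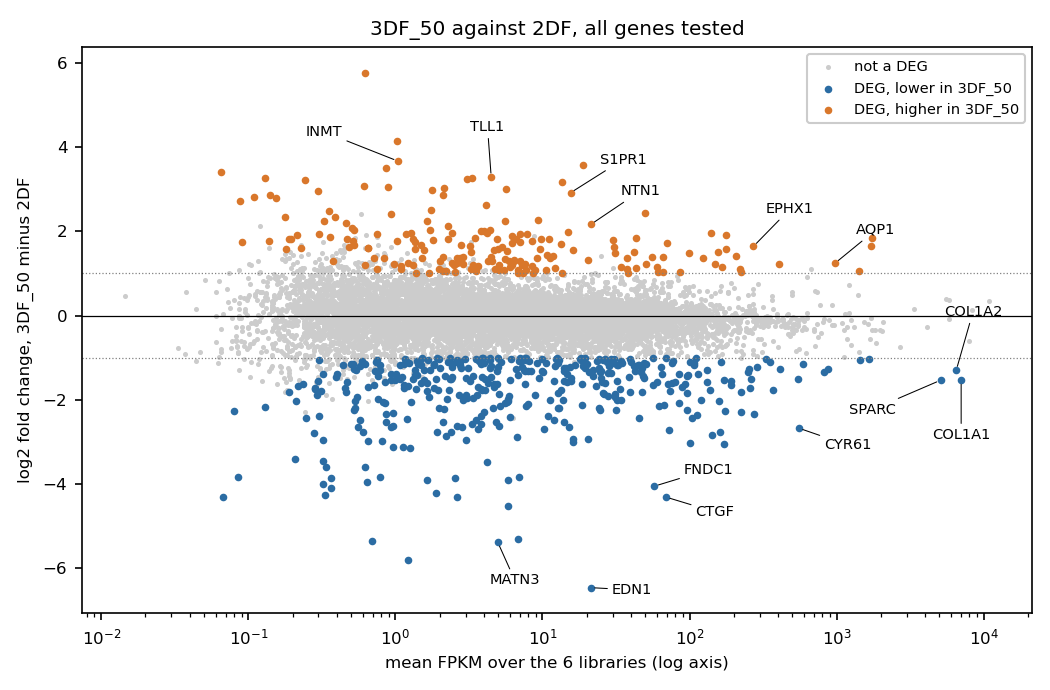
Each point is 1 of the 13201 genes tested, placed by its mean FPKM over the 6 libraries (log axis) and its log2 fold change (3DF_50 minus 2DF). The 397 lower DEGs (blue) reach -6.47 at EDN1 among the genes labelled, the 190 higher DEGs (orange) reach 3.67 at INMT among the genes labelled, and the highly expressed collagens COL1A1 and COL1A2 lie among the lower DEGs.

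Many collagen chains were lower in 3DF_50 and none was a higher DEG. Of 42 collagen genes found in the table, 32 passed the filter on low counts, 15 of these were lower DEGs (46.9%, against 3.01% of all genes tested), and the estimate was below zero for 32 of 32, with a median log2 fold change of -1.19 against 0.021 for all genes. COL1A1, on chr19:37474894-37490691 of oryCun2, encodes the α1 chain of type I collagen, the main fibril collagen of the stroma. It measured 7937, 10095 and 13406 FPKM in the 2DF libraries and 3868, 3347 and 3481 FPKM in the 3DF_50 libraries (replicates 1, 2 and 3 in turn here and below). The highest 3DF_50 library was thus below the lowest 2DF library, and expression was 2.9-fold lower (log2 fold change -1.54, SE 0.23, adjusted p = 0.0011). The partner chain COL1A2 (chr10:34497959-34533742) measured 7583, 8588 and 11675 in 2DF and 4282, 3079 and 3797 in 3DF_50, 2.47-fold lower (adjusted p = 0.00294). In 3DF the means were 6376 ± 824 for COL1A1 and 7453 ± 396 for COL1A2 (SD, n = 3). Between 3DF_50 and 3DF, where 0.452% of 13285 genes were DEGs (0.316% lower), the log2 fold changes were -0.81 and -0.98 (adjusted p = 0.0824 and 0.0636), neither past the threshold. By limma on log2(FPKM + 1), COL1A1 and COL1A2 kept log2 fold changes of -1.52 and -1.31 and did not pass (adjusted p = 0.0846 and 0.127), and the block on the library prefix left 8 lower collagen chains.

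Type V collagen sets fibril diameter by co-assembling with type I, and its 3 chains gave unequal results. COL5A2 measured 1097, 1209 and 1428 FPKM in 2DF and 571, 465 and 496 in 3DF_50 and was 2.41-fold lower (adjusted p = 0.000499). COL5A1 measured 656, 829 and 936 and 456, 434 and 407, without overlap, and passed the p threshold but not the fold limit (log2 fold change -0.88, adjusted p = 0.00281). COL5A3, the least abundant chain, measured 0.707, 1.21 and 4.21 in 2DF and 0.36, 0.196 and 0.546 in 3DF_50 (adjusted p = 0.0209), with replicate 3 of 2DF far above the others; without that library COL5A3 did not pass (log2 fold change -1.37, adjusted p = 0.0554), nor without replicate 1 or replicate 2 of 3DF_50. COL11A1, which belongs to the same minor fibrillar group as the type V chains, was lower by a wider margin. Its levels were 138, 145 and 239 in 2DF and 32.7, 31.7 and 31.9 in 3DF_50, a 5.37-fold difference (log2 fold change -2.42, SE 0.20, adjusted p = 2.83e-05). COL3A1, a fibrillar collagen of scars, stood under 1 FPKM in every library (0.494, 0.887 and 0.508 and 0.449, 0.209 and 0.112) and did not pass (adjusted p = 0.0986).

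Of 15 tested collagens outside the fibrillar and basement membrane lists, 8 were lower DEGs (53.3%, against 3.01% of all genes) and 7 were not, among them the type VI chains named here. COL8A2, a short-chain collagen of Descemet's membrane that is also on the list of corneal endothelial markers, measured 332, 367 and 416 FPKM in 2DF and 79.9, 66.5 and 77.7 in 3DF_50 and was 4.92-fold lower (adjusted p = 3.99e-06). COL8A1, its partner, was 2.17-fold lower (53.5, 71.1 and 78.4 and 33.9, 23.8 and 34.7). COL10A1, better known from hypertrophic cartilage, fell from a low level (3.14, 2.09 and 4.77 to 0.585, 0.439 and 0.43), a 6.8-fold difference with an adjusted p of 0.000275. The type IV genes COL4A3 and COL4A4 are neighbors in opposite orientation on chromosome 7. COL4A3 measured 72.4, 78.1 and 72.4 in 2DF and 22, 18.3 and 22.2 in 3DF_50. COL4A4 measured 54.3, 71.1 and 60.3 and 18.7, 14.1 and 19.1. Log2 fold changes were -1.82 and -1.82, and neither gene overlapped between the conditions. COL14A1, a collagen on fibril surfaces, was 2.98-fold lower (164, 231 and 194 against 66.2, 47.3 and 81.7, adjusted p = 0.000464). COL12A1, of the same kind, measured 681, 722 and 662 and 348, 340.2 and 446 and passed without reaching the fold limit (log2 fold change -0.85, adjusted p = 0.0049). The beaded-filament chain COL6A1, by contrast, measured 1665, 2379 and 2088 in 2DF and 1695, 1485 and 1587 in 3DF_50, ranges that overlapped (log2 fold change -0.35, SE 0.16, adjusted p = 0.215). COL6A3 gave an estimate of -0.35 with an adjusted p of 0.162.

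**Figure D2:**
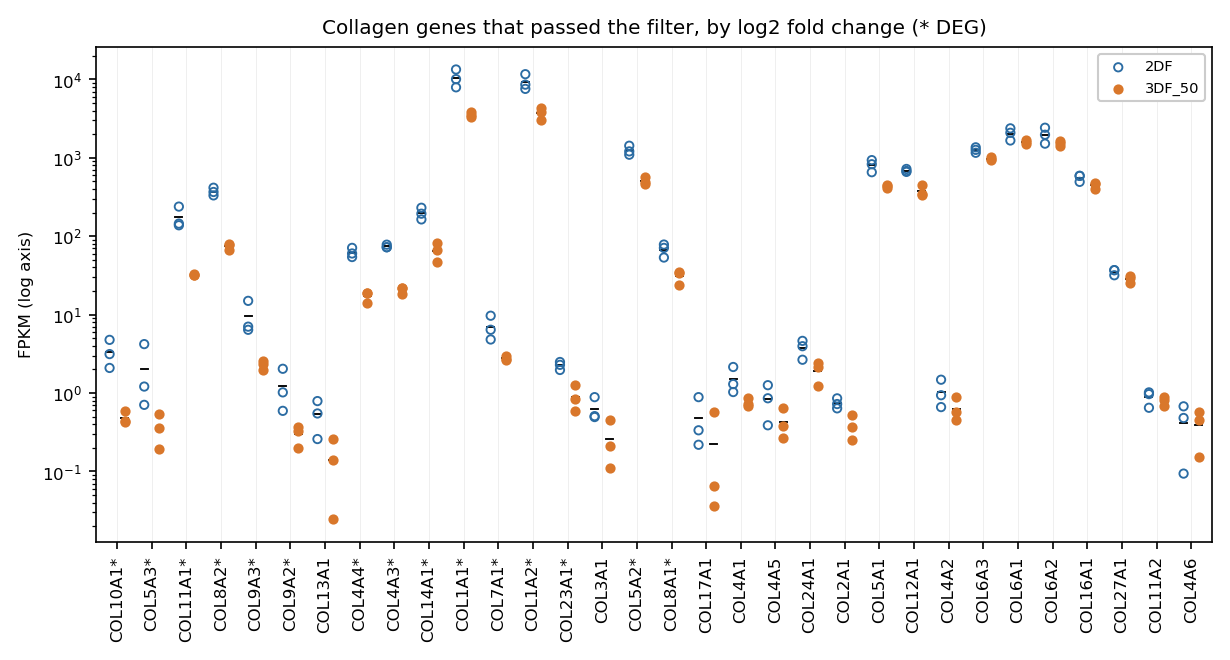
FPKM (log axis) of the 32 collagen genes that passed the filter, ordered by log2 fold change, with open circles for the 3 2DF libraries and filled circles for the 3 3DF_50 libraries; short bars are the means and DEGs are marked with an asterisk. The 15 marked chains run from COL10A1 (-2.77) to COL8A1 (-1.12), and the points of COL6A1 overlap between the conditions.

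Other basement membrane genes gave a mixed picture, with 6 of 21 tested members of the list lower and 1 higher (28.6% and 4.76%, against 3.01% and 1.44% of all genes). SPARC, a collagen-binding matricellular protein and one of the most abundant transcripts here, measured 6747, 6431 and 9598 FPKM in 2DF and 3064, 2408 and 2283 in 3DF_50 and was 2.9-fold lower (adjusted p = 0.00068). LAMA2, a laminin chain, was 3.89-fold lower (3.27, 6.92 and 5.86 against 1.32, 0.963 and 1.78), and HSPG2, the core protein of perlecan, 2.11-fold lower (19.6, 32.2 and 24 against 11.1, 9.85 and 14.4). LAMA1, the embryonic laminin α chain, was the member that was higher, at 0.078, 0.149 and 0.0242 FPKM in 2DF and 0.292, 0.221 and 0.363 in 3DF_50 (adjusted p = 0.0375); all 6 of these values are under 1 FPKM, and LAMA1 did not pass when any 1 of 5 of the 6 libraries was left out, replicate 2 of 2DF being the exception. HSPG2 fell short of the fold limit without replicate 2 of either condition.

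Genes whose products fold, trim and crosslink collagen were lower along with the chains: 12 of 20 tested list members (60%, against 3.01% of all genes) were lower DEGs and none was higher; with the library prefix as a block 5 were. Of the lysyl oxidase family, LOX, LOXL1, LOXL2 and LOXL4 were lower DEGs, and LOXL3 was not (log2 fold change -0.38, adjusted p = 0.0633). With the library prefix as a block, where the difference rests on the E5 pair alone, these calls did not hold. For LOX, LOXL1, LOXL2 and LOXL4 the log2 fold changes were then -1.19, -0.89, -1.46 and -2.06, against -1.72, -1.5, -1.6 and -2.42. LOX, which oxidizes lysines for crosslinking, measured 379, 352 and 463 FPKM in 2DF and 81.8, 169 and 108 in 3DF_50 (3.3-fold lower, adjusted p = 0.000739). The 3DF mean of LOX, 125 ± 20.8 (SD, n = 3), lay near the 3DF_50 values (log2 fold change -0.04, adjusted p = 0.94). LOXL1 measured 332, 380.5 and 458 and 124, 181 and 103 (2.83-fold lower). LOXL2 measured 107, 109 and 129 and 33.8, 39.5 and 39, with little spread inside either condition (3.04-fold lower, adjusted p = 8.68e-06). LOXL4 had the largest difference of the family, 5.34-fold, from 9.66, 6.83 and 13.8 to 1.64, 2.35 and 1.62. P4HA2, a prolyl hydroxylase subunit needed for a stable triple helix, was 2.62-fold lower (121, 116 and 132 against 46.6, 43.7 and 48.6, adjusted p = 7.3e-06). PLOD2, a lysyl hydroxylase of telopeptides, was 2.83-fold lower (2.88, 3.19 and 4.39 against 1.04, 1.01 and 1.6). PCOLCE, which speeds removal of the C-propeptide, was 2.4-fold lower (259, 415 and 399 against 181, 123 and 138), and ADAMTS2, the N-proteinase of type I procollagen, lay just past the fold limit (log2 fold change -1.01, adjusted p = 0.000339).

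Matricellular and elastic fiber genes had 13 lower and 2 higher DEGs among 34 tested (38.2% and 5.88%, against 3.01% and 1.44% of all genes). CTGF, a matricellular regulator of matrix production, measured 91, 124 and 180 FPKM in 2DF and 5.8, 6.81 and 6.99 in 3DF_50. The difference was 19.9-fold (log2 fold change -4.32, SE 0.23, adjusted p = 3.03e-06), and the 3DF_50 libraries lay close together while 2DF varied more. CYR61, its relative, measured 844, 885 and 1148 in 2DF and 152, 177 and 116 in 3DF_50 (6.4-fold lower, adjusted p = 8.55e-06). FN1, fibronectin, which bridges integrins and collagen, measured 473, 519 and 715 and 139, 155 and 199 and was 3.42-fold lower (adjusted p = 0.00022). TNC, a glycoprotein of wounds, was 15.1-fold lower, but from 1.6, 0.951 and 6.62 FPKM in 2DF to 0.421, 0.0459 and 0.142 in 3DF_50, so that its 2DF level rested largely on replicate 3 and the log2 fold change without that library was -2.65 in place of -3.91. ELN, the elastin monomer, measured 9.22, 8.59 and 21.3 in 2DF and 1.11, 0.928 and 0.667 in 3DF_50 (14.3-fold lower, adjusted p = 0.000135). FBLN5, which guides elastin onto microfibrils, was 2.86-fold lower at a far greater abundance (799.6, 726 and 917 against 277, 315 and 253). MATN3, a matrix adaptor known from cartilage, went from 10.1, 6.39 and 12.7 to 0.169, 0.419 and 0.0911 (log2 fold change -5.39). The higher members were NTN1, a laminin-related guidance cue, at 7.9, 9.74 and 5.92 in 2DF and 32.5, 35.1 and 37.1 in 3DF_50 (4.5-fold higher, adjusted p = 1.09e-05), and CRISPLD2, a secreted glycoprotein, 3.3-fold higher (35.8, 39.2 and 24 against 100.1, 111 and 112).

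**Figure D3:**
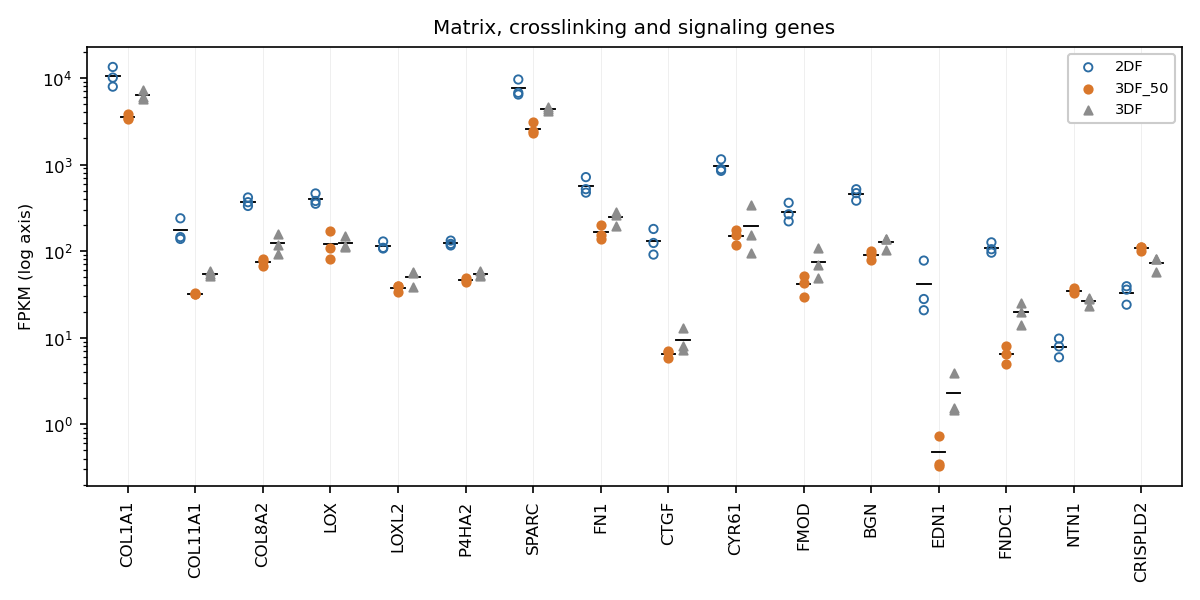
FPKM (log axis) of 16 matrix, crosslinking and signaling genes in each library, with open circles for 2DF, filled circles for 3DF_50 and gray triangles for the 3 3DF libraries; horizontal bars are the means of each condition. For every gene shown the 3DF_50 points lie below all 2DF points, except NTN1 and CRISPLD2, where they lie above.

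The abundant stromal proteoglycans LUM, DCN, OGN and KERA were not DEGs, whereas 6 of 17 tested members of the list were lower (35.3%, against 3.01% of all genes). Lumican (LUM) measured 8738, 9475 and 10712 FPKM in 2DF and 6555, 5272 and 6820.1 in 3DF_50 without overlap, a log2 fold change of -0.62 that passed the p threshold only (adjusted p = 0.0434). Decorin (DCN) measured 7639, 8296 and 8171 and 8632, 8348 and 9065 (log2 fold change 0.13, SE 0.16, adjusted p = 0.674). Keratocan (KERA), the proteoglycan most particular to keratocytes, measured 1915, 2631 and 2381 and 1820, 1507 and 1966, ranges that overlapped (log2 fold change -0.37, SE 0.17, adjusted p = 0.194). OGN, mimecan, gave -0.28 with an SE of 0.20 (adjusted p = 0.429). Several of the lower members are better known from tendon, bone and cartilage. FMOD, fibromodulin, measured 220.3, 266 and 361 in 2DF and 43.1, 29.1 and 51.3 in 3DF_50 (6.77-fold lower, adjusted p = 2.96e-05). BGN, biglycan, measured 467, 382 and 518 and 99, 78.3 and 91.8 (5.02-fold lower, adjusted p = 5.49e-06). ASPN, asporin, varied most inside 2DF, at 392, 98.3 and 433, against 24.8, 59.3 and 26.3 in 3DF_50 (8.29-fold lower, adjusted p = 0.00228). PRELP was 2.41-fold lower (518, 670.1 and 559 against 240.4, 225 and 251).

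Keratocyte crystallins and markers did not move as a block, with 5 of 14 tested lower and 1 higher (35.7% and 7.14%, against 3.01% and 1.44% of all genes). The list is broad: it includes THY1 and VIM, and the paper places VIM among genes that typically rise in activated stromal cells. Of the 8 tested keratocyte markers whose sums are given above, only ANGPTL7 was a lower DEG (12.5%, against 3.01% of all genes), and 0 were higher. ALDH1A1, a corneal crystallin, measured 613, 643 and 551 FPKM in 2DF and 874, 843 and 902 in 3DF_50; the ranges did not overlap and the log2 fold change was 0.55 (adjusted p = 0.0114), under the fold limit. TKT, transketolase, measured 678, 779 and 665 and 876, 811 and 805 (log2 fold change 0.25, adjusted p = 0.239). AQP1, the water channel of keratocytes, was the higher member, at 649, 645 and 457 in 2DF and 1172, 1612 and 1324 in 3DF_50 (2.37-fold, adjusted p = 0.000805), and its 3DF mean was 616 ± 173 (SD, n = 3; log2 fold change between 3DF_50 and 3DF 1.18, adjusted p = 0.0567). ANGPTL7, a secreted protein abundant in the corneal stroma, was 3.35-fold lower (37, 66.2 and 52.8 against 12.5, 16.9 and 16.5). THY1 (CD90), a surface protein that marks activated stromal fibroblasts, was 2.52-fold lower (15.7, 15.2 and 12.7 against 7.28, 4.68 and 5.23). VIM, vimentin, measured 766, 800.2 and 874 and 324, 315 and 440.2 and was 2.23-fold lower (adjusted p = 0.000555), and CRYAB, a small heat shock protein, was 2.45-fold lower.

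The contractile cytoskeleton list had 3 lower and no higher DEG among 36 tested (8.33% lower, against 3.01% of all genes). In the lower direction 16 members, these 3 included, passed the p threshold, and in the higher direction 2 did. CNN3, an actin-binding calponin, measured 120.4, 131 and 168 FPKM in 2DF and 50.2, 42.5 and 60.4 in 3DF_50 (2.71-fold lower, adjusted p = 0.000155). TAGLN, a smooth muscle actin-binding protein, was near the low end of the range at 0.988, 2.99 and 2.83 and 0.294, 0.0933 and 0.352 (8.87-fold lower). CAV1, the caveola coat protein, was 5.57-fold lower from a similar level (0.753, 0.747 and 1.43 against 0.162, 0.0961 and 0.254). ACTB, cytoplasmic actin, measured 684, 1079.8 and 916 and 535, 553 and 511 (log2 fold change -0.73, adjusted p = 0.0116), and was not a DEG. ACTA2, the smooth muscle actin of myofibroblasts, did not pass the filter on low counts, at 0.387, 0.512 and 0.173 in 2DF and 0.128, 0.163 and 0.268 in 3DF_50.

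YAP/TEAD target genes had 6 lower DEGs among 19 tested (31.6%, against 3.01% of all genes) and none higher, with a median log2 fold change of -0.44. CTGF and CYR61, described above, belong to this list. AMOTL2, which binds and restrains YAP, measured 159.7, 195 and 219 FPKM in 2DF and 44.8, 45.7 and 51.2 in 3DF_50 (4.01-fold lower, adjusted p = 7.3e-06). CCDC80, a secreted matrix protein, was 3.83-fold lower (58.8, 35.6 and 54.7 against 12.7, 12.8 and 13.1). Of the 13 tested members that were not DEGs, 6 passed the p threshold alone in the lower direction and 1 in the higher.

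Of 21 tested integrins, syndecans and discoidin receptors, 3 were lower DEGs (14.3%, against 3.01% of all genes) and none was higher, though 10 passed the p threshold in the lower direction. ITGA11, a collagen receptor chain, measured 115, 134 and 177 FPKM in 2DF and 42.4, 48.6 and 44.1 in 3DF_50 (3.11-fold lower, adjusted p = 7e-05). SDC1, a heparan sulfate coreceptor, was 2.55-fold lower (35.5, 29.9 and 24 against 13, 8.78 and 12.9). ITGB1, the common β chain of the collagen and fibronectin receptors, measured 221, 205 and 233 and 129, 133 and 137 (log2 fold change -0.70, adjusted p = 0.00134). ITGA5, of the fibronectin receptor, measured 13.3, 14 and 16.3 and 12.9, 14.8 and 13.1 and did not pass, with an estimate of -0.08 and an SE of 0.10 (adjusted p = 0.687).

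Metalloproteinases and their inhibitors included 7 lower and 1 higher DEGs among 39 tested (17.9% and 2.56%, against 3.01% and 1.44% of all genes). TIMP1, a secreted inhibitor, measured 311, 204 and 541 FPKM in 2DF and 118, 70.7 and 108 in 3DF_50 (3.52-fold lower, adjusted p = 0.00257). MMP9, a gelatinase, was 5.79-fold lower at low levels (2.52, 2.88 and 5.39 against 0.601, 0.206 and 1.01). ADAM12, a membrane protease of activated mesenchymal cells, was 7.72-fold lower, from 2.53, 3.03 and 10.6 to 0.676, 0.604 and 0.785, and replicate 3 of 2DF was well above the other 2DF libraries; without it the log2 fold change moved from -2.95 to -2. The abundant gelatinase MMP2 measured 2163, 2318 and 2324 and 1414, 1660.4 and 1206, with a log2 fold change of -0.65 that passed the p threshold only (adjusted p = 0.0192). ADAMTS15, a proteoglycan-degrading protease, was the higher member, at 0.0862, 0.237 and 0.0964 in 2DF and 2.15, 1.34 and 1.28 in 3DF_50 (11.4-fold, adjusted p = 0.000159).

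Of the genes with a symbol and at least 1 FPKM in the condition where they were higher, the 10 largest decreases were those of EDN1, KCNA5, MATN3, RASGEF1C, MEDAG, CTGF, TINAGL1, CILP, FNDC1 and LRRC15. FNDC1, a secreted protein with fibronectin type III domains, was the most abundant of these after CTGF, at 105, 95.8 and 126 FPKM in 2DF and 4.97, 6.48 and 7.96 in 3DF_50 (16.6-fold lower, log2 fold change -4.06, SE 0.18, adjusted p = 1.46e-06). Its libraries varied little inside either condition, and the 3DF mean was 19.5 ± 5.44 (SD, n = 3), with a log2 fold change of -1.57 between 3DF_50 and 3DF (adjusted p = 0.0318). MEDAG, a gene linked to fat cell formation, measured 8.43, 6.43 and 18.6 and 0.613, 0.204 and 0.605 (log2 fold change -4.53). TINAGL1, a matricellular protein of basement membranes, measured 4.08, 4.3 and 6.69 and 0.0255, 0.267 and 0.434 (log2 fold change -4.31). KCNA5, a voltage-gated potassium channel, went from 1.19, 3.03 and 2.95 to 0.091, 0 and 0.0272, a level at which the fitted log2 fold change of -5.81 depends on a few reads. CILP, a cartilage matrix protein, measured 1.6, 1.26 and 7.91 in 2DF and 0.225, 0.189 and 0.154 in 3DF_50, so that its 2DF mean rested on replicate 3; without it the log2 fold change moved from -4.22 to -2.90.

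Secreted signals were among the DEGs, and EDN1, endothelin-1, a vasoconstrictor peptide that also acts on fibroblasts, led that ranking. EDN1 (chr12:6011333-6037477) measured 20.7, 27.9 and 77.6 FPKM in 2DF and 0.734, 0.349 and 0.329 in 3DF_50. The log2 fold change was -6.47 with an SE of 0.59 (adjusted p = 6.35e-05), and the lowest 2DF library was still far above the highest 3DF_50 library; without replicate 3 of 2DF the log2 fold change was -5.68. The 3DF mean was 2.3 ± 1.4 (SD, n = 3) and the log2 fold change between 3DF_50 and 3DF -2.26 (adjusted p = 0.0811). Among growth factors and receptors, 12 of 57 tested were lower and 1 higher (21.1% and 1.75%, against 3.01% and 1.44% of all genes). Neurotrophic factors were among them: NTF3 measured 5.91, 5.64 and 7.45 in 2DF and 0.738, 1.09 and 1.06 in 3DF_50 (6.46-fold lower, adjusted p = 4.66e-05). GDNF measured 6.5, 7.47 and 11.1 and 1.85, 1.63 and 2.12 (4.42-fold lower, adjusted p = 7.37e-05). FGF13, an intracellular member of the FGF family, was 6.01-fold lower (6.71, 5.65 and 7.33 against 1.29, 0.899 and 1.05). PDGFC, a ligand of PDGF receptors, was 2.15-fold lower (31.6, 37.3 and 43.8 against 15.8, 17 and 18.9), and the IGF-binding IGFBP5 3.99-fold lower (33.8, 58.2 and 62.4 against 16.6, 8.6 and 13.1). Of cytokines and chemokines, 4 of 41 tested were lower (9.76%, against 3.01% of all genes) and 1 higher (2.44%, against 1.44%); with library size only 4 were higher. CXCL8, a neutrophil chemokine, was 4.42-fold lower (81.9, 63.8 and 156 against 15.4, 31.6 and 20.5). SOCS1, a feedback inhibitor of cytokine receptors, was 2.6-fold higher (21.8, 24 and 17.4 against 47.9, 69 and 45.6).

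TGF-β and BMP family members went both ways, 5 lower and 4 higher of 43 tested (11.6% and 9.3%, against 3.01% and 1.44% of all genes). The ligands GDF5 and BMP4 were higher: GDF5 measured 2.81, 1.66 and 2.03 FPKM in 2DF and 8.18, 7.78 and 6.87 in 3DF_50 (3.55-fold, adjusted p = 0.000327). BMP4 measured 4.5, 4.19 and 6.03 and 9.17, 10.8 and 9.51 (2.03-fold, adjusted p = 0.00356). NOG, the BMP antagonist noggin, was lower, at 4.74, 5.67 and 8.76 in 2DF and 0.679, 2.12 and 0.784 in 3DF_50 (5.26-fold, adjusted p = 0.00278). The coreceptors moved in opposite directions. ENG, endoglin, was 4.26-fold lower (118, 127 and 168 against 30.4, 31.3 and 34.2), and TGFBR3, betaglycan, 2.49-fold higher (13.1, 11 and 11.5 against 26, 28.5 and 32.9). Of the Wnt list only DKK3, a secreted Dickkopf family member, was a DEG among 36 tested (2.78% lower, near the 3.01% of all genes; DESeq2 called 2); it measured 221, 203 and 323 in 2DF and 41.2, 33.1 and 29.5 in 3DF_50 (7.12-fold lower, adjusted p = 7.3e-06).

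Among immediate early genes, 7 of 30 tested were lower and 1 higher (23.3% and 3.33%, against 3.01% and 1.44% of all genes). These genes are known to respond quickly to handling, whose part in the result was not tested. JUN, an AP-1 subunit, measured 1188, 1132 and 1248 FPKM in 2DF and 333, 575 and 481 in 3DF_50 (2.54-fold lower, adjusted p = 0.000629). NR4A1, an orphan nuclear receptor, was 4.36-fold lower (31.1, 38.4 and 21.5 against 5.12, 8.25 and 7.21). FOS measured 689, 792 and 876 and 540.5, 648 and 671 and did not pass (log2 fold change -0.33, adjusted p = 0.175). ATF3 passed at the threshold (adjusted p = 0.05) although its ranges overlapped, at 23.9, 9.48 and 30.1 and 4.79, 13.1 and 6.13. DUSP6, a phosphatase of ERK, was higher, at 2.99, 2.62 and 3.92 in 2DF and 6.54, 8.15 and 9.37 in 3DF_50 (2.55-fold, adjusted p = 0.000751).

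Cells hold their cholesterol level by balancing uptake, synthesis and export. Of genes for these steps, 4 of 25 tested were lower DEGs and 1 higher, against 3.01% and 1.44% of all genes. With library size only 2 were lower, and without replicate 3 of 2DF also 2. In both of those fits the synthesis gene HMGCS1 lost its call. The synthesis genes SQLE (8.48, 7.05 and 11.5 FPKM in 2DF against 2.75, 3.18 and 3.33 in 3DF_50) and HMGCS1 (8.74, 8.11 and 12.8 against 4.48, 4.57 and 5) were 2.88-fold and 2.09-fold lower. ABCA1, which exports cholesterol, was the higher member, at 41.4, 39.4 and 29.9 in 2DF and 83.8, 104 and 97.8 in 3DF_50 (2.61-fold, adjusted p = 0.000159).

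Of genes with a symbol and at least 1 FPKM, the 10 largest increases in 3DF_50 were those of INMT, ADAMTS15, TLL1, CST7, GPR162, FBLIM1, WSCD1, CRYGS, S1PR1 and ALDH1A3. TLL1, a tolloid-like protease that cleaves procollagens and BMP antagonists, measured 1.11, 0.719 and 0.693 FPKM in 2DF and 8.15, 7.48 and 8.75 in 3DF_50, a 9.77-fold difference (log2 fold change 3.29, SE 0.19, adjusted p = 3.78e-06). The deposited annotation ties further rows on unplaced scaffolds to TLL1, so the counting could split reads among near-identical copies and the TLL1 level is uncertain. S1PR1, a receptor for sphingosine 1-phosphate, measured 4.63, 4.46 and 1.9 and 24, 21.1 and 37.1 (7.56-fold higher, adjusted p = 0.000135). GPR162, an orphan receptor, measured 2.88, 4.05 and 1.26 and 28.2, 18.6 and 26.6 (9.04-fold higher, adjusted p = 8.85e-05). CST7, a cysteine protease inhibitor, was 9.59-fold higher (0.261, 1.04 and 0.591 against 8.1, 4.37 and 5.64). DRD1, the D1 dopamine receptor, was higher at a low level (0.235, 0.528 and 0.125 in 2DF and 2.1, 1.03 and 1.55 in 3DF_50, adjusted p = 0.00398). CRYGS, a γ-crystallin better known from the lens, was 8-fold higher (1.89, 1.47 and 0.414 against 15, 8.93 and 6.23). INMT, an N-methyltransferase, led the ranking, from 0.03, 0.298 and 0.121 to 2.35, 1.08 and 2.35 (log2 fold change 3.67, SE 0.58). ALDH1A3, a retinoic acid-forming enzyme, was 5.69-fold higher (0.799, 0.324 and 0.439 against 5.27, 2.2 and 1.42), with replicate 1 of 3DF_50 well above the others; without it the log2 fold change moved from 2.51 to 1.80. SLC16A1, a lactate transporter, was the only DEG among 37 tested genes of glycolysis and hypoxia (2.7% higher, against 1.44% of all genes). It was 2.18-fold higher (adjusted p = 0.000145).

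**Figure D4:**
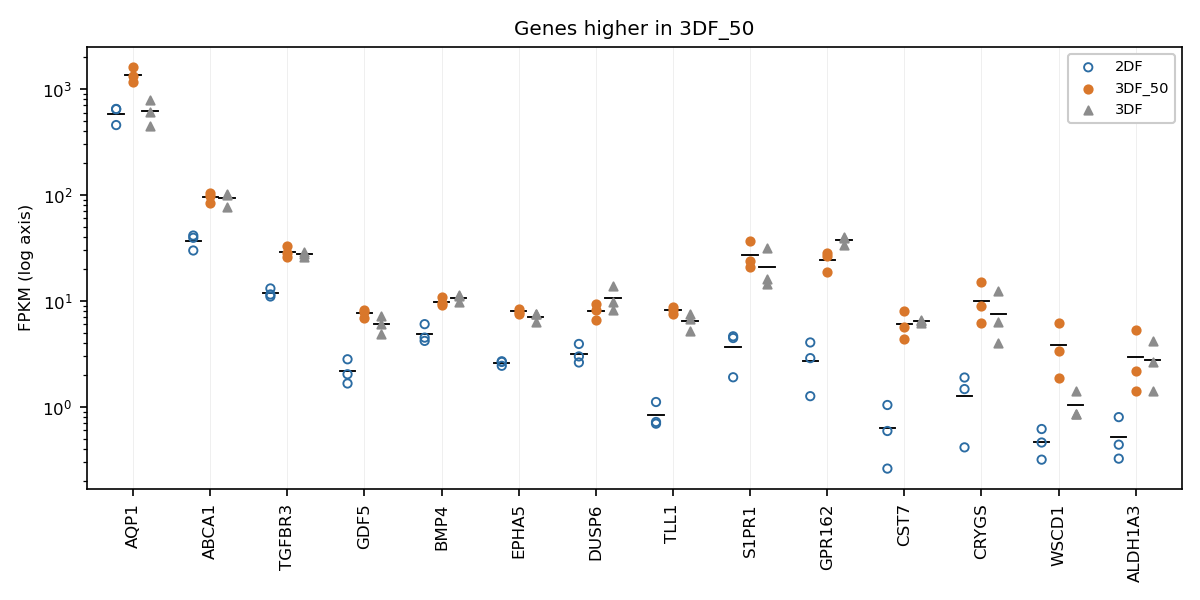
FPKM (log axis) of 14 genes that were higher in 3DF_50, in each library, with open circles for 2DF, filled circles for 3DF_50 and gray triangles for 3DF; horizontal bars are the means of each condition. The 3DF_50 points lie above all 2DF points for each gene shown, and the spread inside 3DF_50 is widest for WSCD1 (6.19, 3.39 and 1.87) and ALDH1A3.

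Of 26 tested cadherins, protocadherins, connexins and catenins, 5 were lower and 2 higher (19.2% and 7.69%, against 3.01% and 1.44% of all genes). CDH8, a classical cadherin known from neurons, measured 11, 11.5 and 15.6 FPKM in 2DF and 2.99, 2.41 and 3.06 in 3DF_50 (4.45-fold lower, adjusted p = 8.68e-06). The gap junction gene GJB5 was 3.07-fold lower (11.6, 8.03 and 15 against 4.02, 3.52 and 3.61). PCDH18, a protocadherin, was 2.25-fold higher (5.02, 5.24 and 5.49 against 9.81, 11.4 and 13.8). Of 51 tested axon guidance genes, 3 were lower and 3 higher (5.88% in each direction, against 3.01% and 1.44% of all genes). With the library prefix as a block 1 was lower and 1 higher. SEMA3C, a secreted semaphorin, was 2.28-fold lower (57.2, 53.1 and 65.5 against 23.8, 24.4 and 28), and EPHA5, an ephrin receptor, 3.1-fold higher (2.44, 2.69 and 2.65 against 8.38, 7.56 and 7.89).

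Over all genes 4.45% were DEGs, a share at which short lists hold few, so the counts of the cell cycle and housekeeping lists are given as values. By edgeR, none of 33 tested DNA replication genes was a DEG, with 3 past the p threshold alone, all higher, and 4 with an unadjusted p under 0.05; DESeq2 and limma called 0 and 0. None of 23 tested mitotic genes was a DEG (1 by DESeq2, 0 by limma), 1 passed the adjusted p threshold alone and 4 had an unadjusted p under 0.05. The filter removed 11 replication and 28 mitotic genes found in the table, and MKI67, a proliferation marker, measured 0.0119, 0.071 and 0.00601 FPKM in 2DF and 0, 0 and 0 in 3DF_50. PCNA, the replication clamp, measured 24.1, 20.1 and 22 and 26.7, 30 and 26.2 (log2 fold change 0.34, SE 0.11, adjusted p = 0.0717). No DEG was found among 63 ribosomal protein genes, 39 genes of oxidative phosphorylation, 42 of lysosomes and autophagy or 26 interferon-stimulated genes; of these, 2, 1, 20 and 14 had an unadjusted p under 0.05, DESeq2 called 0, 0, 1 and 0, and limma 0, 0, 1 and 0. CRYAB was the only DEG of 14 tested heat shock genes, and GADD45G, a stress-response gene, of 33 tested cell cycle inhibitors (3.03%, near the 3.01% of all genes; 2.2-fold lower, adjusted p = 0.0115).

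**Figure D5:**
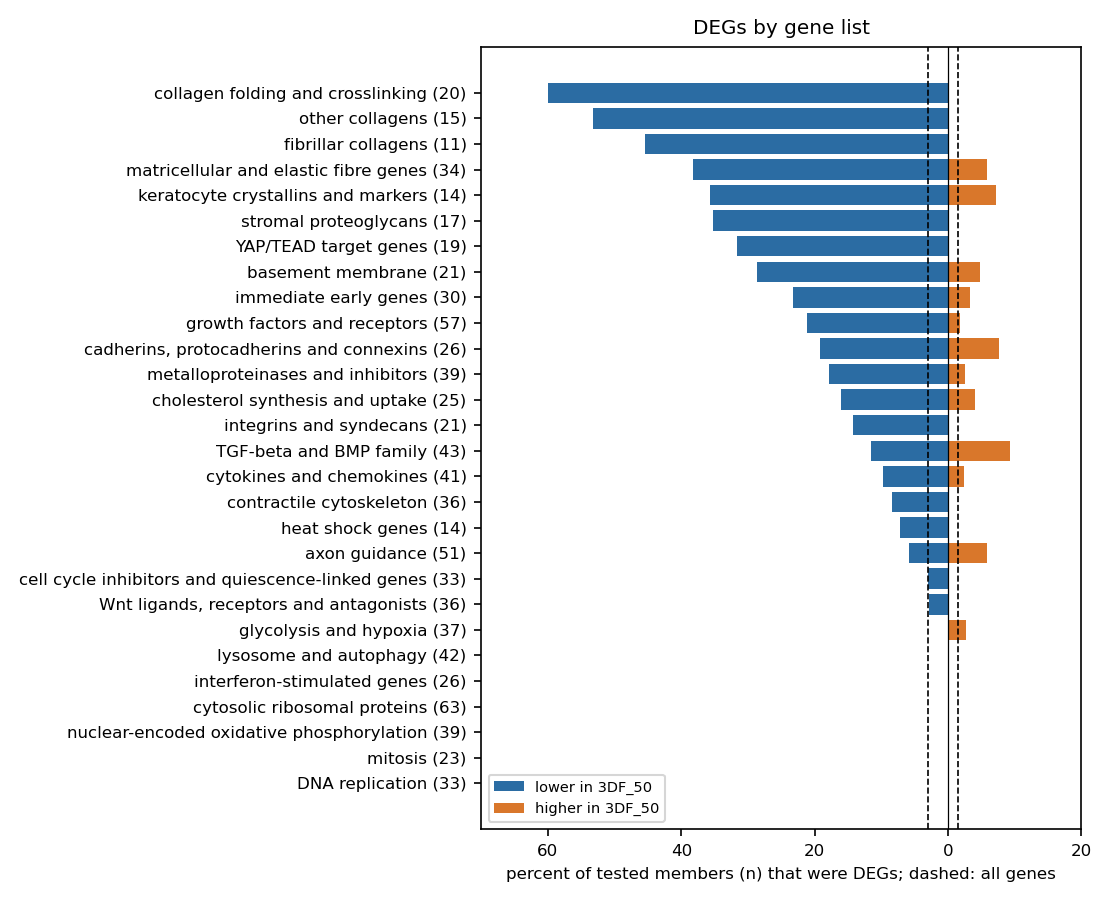
Percent of tested members that were DEGs lower (blue, left) or higher (orange, right) in 3DF_50 for each of 28 gene lists with at least 10 tested members; dashed lines mark the share over all genes, 3.01% lower and 1.44% higher. Collagen folding and crosslinking (60% lower) and the collagen lists lie farthest to the left.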

How the data were processed

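Total RNA of cultured rabbit corneal keratocytes was sequenced in 15 libraries, 3 for each of 5 conditions. The authors aligned reads to the rabbit genome (oryCun2) with HISAT2 2.0.5, counted reads per gene with featureCounts 1.5.0-p3 and deposited raw counts and FPKM values; the strand setting of the counting was not given in the sources used here, so overlapping genes may share reads. Raw counts were tested with edgeR 4.0.16 (TMM factors, filterByExpr with a minimum count of 10, quasi-likelihood F test, R 4.3.3) between the 3 3DF_50 and 3 2DF libraries with no covariate. FPKM values, as the authors deposited them, give the level per library, and fold changes come from the counts. The total per library was 14626982 to 17674886 counted reads over 23428 genes. Standard errors are the size of the log2 fold change over the square root of F. DESeq2 1.42.0, limma 3.58.1, other scalings, filters, blocks and left-out libraries were alternatives, and the scripts were tested on simulated data.

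Samples were grouped by their condition labels, and replicates are separate experiments. The comparison, the gene lists and the rule for named genes were chosen with earlier results of these data known. Named are the 10 largest changes per direction among DEGs with a symbol, at least 1 FPKM and no overlap, the DEGs of the gene lists, the study's markers of quiescent and activated cells, and the 2 most abundant members of each list; COL12A1, COL6A3, FOS, LAPTM5, LOXL3, PTPRC, SLC4A11 and TMEM178A were added after their values were seen. Of the lists, oxidative phosphorylation (63.9%), interferon-stimulated genes (77.5%) and immune markers (72.2%) had under 80% of their members in the table. Promoter and other sequences were not analysed here, and a few members of the gene lists are counted but not reported by name.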

Additional observations from a re-analysis of the deposited data

Results flagged for a closer look

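Between the 3D conditions, 3DF_50 and 3DF differ in the number of cells per matrix, and 30 of the 587 DEGs between 3DF_50 and 2DF also had an adjusted p of at most 0.05 by edgeR's quasi-likelihood test between 3DF_50 and 3DF. The 11 of these that are named elsewhere in the text are given here for that reason. Both comparisons use the same 3DF_50 libraries. The share of all genes at that p threshold between 3DF_50 and 3DF, without a fold limit, is not given here. The 30 are thus a count that is not read against all genes. Among collagens, the log2 fold changes (3DF_50 minus 3DF) were -1.18 for COL14A1, -1.17 for COL4A4, -0.94 for COL4A3 and -0.74 for COL11A1. Among other matrix, signaling and surface genes they were -1.57 for FNDC1, -1.39 for ADAM12, -1.25 for GDNF, -1.22 for LAMA2, -1.15 for TMSB15B and -1.05 for FAP. The aldehyde oxidase gene AOX1 was higher in 3DF_50, by 0.90. The adjusted p-values of these 11 genes ran from 0.0318 to 0.0403.

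These values rest on few libraries. Of 13285 genes tested between 3DF_50 and 3DF, 60 (0.452%) were DEGs, 18 higher and 42 lower. Without replicate 3 of 3DF 4 were called, and without replicate 1 or replicate 2 of 3DF_50 edgeR called 0 and 0, although 1847 and 1491 of the genes tested then had an unadjusted p under 0.05; no other tool was run on those fits. Without replicate 3 of 3DF_50 61 were called, and without replicate 1 or replicate 2 of 3DF 77 and 74. Each density fit that leaves out 1 library of a condition keeps 2 of it. The effects of 3DF_50 and 3DF against 2DF share the 2DF libraries as well and are not compared here.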

How the results depend on the processing

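The 587 DEGs (190 higher, 397 lower) became 624 by DESeq2, 566 of them the same genes. They became 589 with DESeq2 size factors in edgeR, 648 with no filter, 569 with a mean of at least 1 CPM and 645 with all 5 conditions in the fit. Without both libraries with the prefix E5, an alternative chosen after seeing the data, they became 551. With any 1 library left out, 491 to 646 were called, 150 to 203 higher and 328 to 458 lower. As above, every value with the library prefix as a block rests on the E5 pair for its difference. With the library prefix as a block 236 were called (45 higher, 191 lower), 216 of them among the 587. With limma on log2(FPKM + 1) 347 were called (103 higher, 244 lower), 318 without a filter (90 higher, 228 lower), and 533 with a pseudocount of 0.1. Without a fold limit 1764 passed (631 higher, 1133 lower), 442 passed an adjusted p of 0.01, and 159 passed with a log2 fold change of at least 2 (44 higher, 115 lower). In the E5 pair alone 366 of the DEGs differed by at least 1 on the log2 scale in their own direction, 150 higher and 216 lower. Library size only gave 681 DEGs (394 higher, 287 lower), and leaving the 10 largest genes out of the library size 602. The median over all genes of the log2 fold change, 0.021, was 0.246 with library size only, 0.144 without the 10 largest genes, 0.009 with DESeq2 size factors and 0.011 to 0.021 when 1 library was left out. The first principal component held 37.7% of the variance with a pseudocount of 0.1, 62.1% over genes with a mean of at least 1 FPKM and 58.0% on log2(CPM + 1), against 56.1%.

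The replicate numbers do not pair the libraries: deviations of same-numbered libraries correlated at -0.0607, -0.15 and -0.0147, and of the E5 pair at 0.235. A replicate block gave 534 DEGs (167 higher, 367 lower), and of the called genes named in the text ATF3 and LAMA1 lost their call under it.

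Among the genes named, no called gene changed direction in any alternative. The uncalled genes that did were ITGA5, from -0.08 to 0.153 with library size only, 0.047 without the 10 largest genes in the library size, 0.137 with the prefix block, 0.005 without replicate 3 of 2DF and 0.342 in the E5 pair, and, in the E5 pair alone, COL6A1 (0.028), FOS (0.104) and OGN (0.15). Differences in the E5 pair, here and above, were taken with library size only. They left out the TMM factors, 0.971 for the 2DF library and 1.11 for the 3DF_50 library of the pair, and added 1 to the scaled counts. By FPKM, COL6A1 and FOS were lower in 3DF_50 in that pair. SLC4A11 went from 0.10 to -0.001 with the replicate block, -0.368 with the prefix block, -0.02 by limma with a pseudocount of 0.1, -0.116 in the E5 pair and between -0.449 (without replicate 1 of 3DF_50) and 0.348 (without replicate 3) when 1 library was left out. Library size only ended the call of 10 called genes named, the prefix block that of 45 and limma on log2(FPKM + 1) that of 14. Those lost under the prefix block were ADAM12, ALDH1A3, ANGPTL7, AQP1, ASNS, ATF3, BMP4, CAV1, CEMIP, COL1A2, COL4A3, COL5A3, CRYGS, DRD1, DUSP6, EPHA5, GADD45G, GCLC, GDF5, GJB5, GSN, HMGCS1, INMT, JUN, KCNA5, LAMA1, LOX, LOXL1, LOXL2, LOXL4, MMP9, NOG, NQO1, NR4A1, NTF3, OSGIN1, PDGFC, SEMA3C, SLC16A1, SPRY4, SRXN1, TAGLN, TNC, UGDH and WSCD1.

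Of the 118 called genes named, 12 lost their call without 1 of the libraries. The log2 fold change or adjusted p without that library missed its threshold for ADAMTS2 (-0.92 without replicate 3 of 2DF, -0.93 without replicate 2 of 3DF_50), HMGCS1 (-0.83) and PDGFC (-0.99) without replicate 3 of 2DF, OSGIN1 (0.94) without the same library, COL8A1 (-0.96) and HSPG2 (-0.96) without replicate 2 of 3DF_50, HSPG2 (-0.88) and BMP4 (0.91) without replicate 2 of 2DF, BMP4 (0.95) without replicate 1 of 2DF or replicate 2 of 3DF_50, and GADD45G (adjusted p = 0.0503 by edgeR) without replicate 1 of 3DF_50. ATF3 missed in 4 of these fits (adjusted p = 0.11 to 0.161), LAMA1 in 5 (0.063 to 0.132), COL5A3 in 3 (0.0554 to 0.096) and ASNS in 3 (0.0543 to 0.0608). A further 15 kept the call and moved by over 1.5 times. Those that grew were ADAMTS15 (4.11), DRD1 (3.11) and INMT (4.62) without replicate 2 of 2DF, KCNA5 (-7.07) and TNC (-4.98) without replicate 1 of 3DF_50, MATN3 (-6.18) and NOG (-3.1) without replicate 2 of 3DF_50, and LAPTM5 (-3.33), MMP9 (-3.14) and TINAGL1 (-5.04) without replicate 3 of 3DF_50. RASGEF1C fell to -4.44 without replicate 3 of 2DF. The cause was not tested for any of these.

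The prefix block gave smaller counts of lower DEGs for several lists, at 10 in place of 13 for matricellular and elastic fiber genes, 4 in place of 6 for YAP/TEAD target genes, 6 in place of 12 for growth factors, 2 in place of 7 for metalloproteinases and inhibitors and 1 in place of 7 for immediate early genes; it gave the same count, 1, for heat shock genes, cell cycle inhibitors and the Wnt list, and 1 in place of 0 for lysosome and autophagy genes.

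Of the genes named, 8 were DEGs between 3DF_50 and 3DF, 9 with the replicate block, and 0 to 9 when 1 library was left out. With 3 libraries per condition, genes of few counts had wide errors. At 14626982 to 17674886 counted reads per library, values under 0.1 FPKM rest on few reads.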

Other observations

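The genes below were chosen after their values were seen, so their counts are descriptions with no test of the group. Several genes of antioxidant and detoxifying metabolism that the transcription factor NRF2 is known to activate were higher in 3DF_50. Of 26 tested, 9 were higher DEGs (34.6%, against 1.44% of all genes) and 0 lower. With these 9 included, 18 passed the p threshold, all higher, and the median log2 fold change was 0.65. EPHX1, an epoxide hydrolase, measured 152, 131 and 116 FPKM in 2DF and 442, 432 and 359.9 in 3DF_50 (3.13-fold higher, SE 0.13 on the log2 scale, adjusted p = 2.6e-05 by edgeR's quasi-likelihood test, as for each p here). NQO1, a quinone reductase, measured 295, 240.4 and 194 and 632, 559.6 and 504 (2.35-fold). GSR, which regenerates glutathione, measured 60.2, 53.2 and 45.3 and 169.7, 143 and 127 (2.8-fold, adjusted p = 5.83e-05). The groups of these 3 genes did not overlap. AOX1, an aldehyde oxidase, was 3.58-fold higher (24.6, 18.8 and 13.5 against 59.4, 76.5 and 65.8). UGDH, which makes the UDP-glucuronate used for glycosaminoglycans and conjugation, measured 123, 108 and 110.4 and 289, 317 and 295 (2.67-fold). SRXN1, GCLC, OSGIN1 and SLC7A11 were the other higher DEGs. HMOX1, heme oxygenase 1, measured 484, 411 and 312 and 725, 564 and 468, ranges that overlapped (adjusted p = 0.082), and NFE2L2, the gene for NRF2 itself, had a log2 fold change of 0.34 (adjusted p = 0.0265). The block on the library prefix left 4 higher DEGs of the list, and the other alternatives 8 to 10.

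Some abundant transcripts were also higher. APOD, the lipid carrier apolipoprotein D, measured 441, 1084 and 955 FPKM in 2DF and 2792, 1503 and 3433 in 3DF_50 (3.16-fold, adjusted p = 0.00844), with wide spread inside both conditions. GSN, gelsolin, which severs actin filaments, measured 922, 948 and 915 and 2039.5, 1720 and 1999 (log2 fold change 1.06, adjusted p = 0.000564), with little spread in 2DF. CEMIP, a hyaluronan-binding protein needed for hyaluronan breakdown, was 3.01-fold higher (119.6, 103 and 45.4 against 281, 212 and 303). Feedback genes of ERK signaling had 3 higher DEGs (17.6%, against 1.44% of all genes) and 0 lower among 17 tested: beside DUSP6, the inhibitor SPRY4 (18.6, 18.8 and 12.4 against 46.4, 51 and 40.3) and the transcription factor ETV5 (2.98, 3.43 and 3.43 against 10.3, 11.4 and 10.7, 3.34-fold, adjusted p = 5.37e-06). NR1H3, the sterol sensor LXRα, measured 1.7, 1.54 and 1.36 and 6.64, 4.87 and 6.88 (4.03-fold higher), and with ABCA1 made 2 of 9 tested LXR genes that were higher DEGs (22.2%, against 1.44% of all genes), with 0 lower.

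On the lower side, FAP, a surface protease of activated fibroblasts, measured 195, 133 and 241 FPKM in 2DF and 36.9, 30.1 and 41.4 in 3DF_50 (5.19-fold, adjusted p = 3.93e-05), and TMSB15B, a thymosin that binds actin monomers, 285, 304 and 284 and 63.3, 52.1 and 62.5 (4.85-fold, adjusted p = 1.46e-06). PYCR1, which makes proline, measured 12.3, 16.4 and 24.5 and 3.88, 1.45 and 2.73 (6.53-fold lower, adjusted p = 0.000346). It and ASNS, asparagine synthetase, were the 2 lower DEGs of 10 tested genes of serine, glycine, proline and related amino acid synthesis. Of these genes 0 were higher. Over all genes 3.01% were lower DEGs and 1.44% higher. ASNS lost its call with library size only, and also without replicate 2 of 2DF, replicate 1 of 3DF_50 or replicate 3 of 3DF_50. Among protein domains of the deposited annotation with at least 20 tested genes, the collagen triple helix had 13 lower DEGs and 0 higher among 38 (34.2% called), and the thrombospondin type 1 domain 7 lower and 1 higher among 23 (34.8% called), against 4.45% of all genes. The CUB domain had 5 higher and 4 lower DEGs among 24 (37.5% called). Once the rows annotated as TLL1 were left out, it had 0 higher and 4 lower among 19 (21.1% called).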
